A study of Homo sapiens with 12 samples.

Results

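The question was which genes respond differently to the PD-L1 siRNA siPDL1-2 when U251 glioblastoma cells are also stimulated with interferon gamma (IFNγ). U251 is an established human glioblastoma line, and a siRNA is a short RNA duplex that directs the cleavage of a matching mRNA, here that of PD-L1, encoded by *CD274*. Of the 12 RNA-seq libraries of the series, 8 entered this comparison, chosen by their labels alone: the control siRNA siNC and siPDL1-2, each without stimulation or with IFNγ at 100 U/ml for 24 h, added 48 h after transfection, with 2 libraries per group. All the cells were wild type and all had been transfected with a siRNA, the control groups included. The other 4 libraries, of a different PD-L1 siRNA (siPDL1-1), entered the fit and are shown for reference. One line was used, and per the study's methods the 2 libraries of a group came from independent experiments, while the labels do not say which libraries of different groups belong to the same one.

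The quantity tested for each gene was the interaction: the log2 effect of siPDL1-2 against siNC with IFNγ, minus the same effect without it. A gene was called when the false discovery rate (FDR, Benjamini-Hochberg) was below 0.01 and the interaction exceeded 1.5-fold. Called genes were placed in classes by where siPDL1-2 against siNC itself passed the same thresholds. The effect was gained when it passed with IFNγ alone, lost when it passed in unstimulated cells alone, reversed when it passed in both with opposite signs, and in the same direction when it passed in both with one sign. The remaining called genes passed in neither state.

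IFNγ binds a receptor on the cell surface and activates the kinases JAK1 and JAK2. Transcription factors then bind gamma-activated sites and, through the IRF factors, interferon-stimulated response elements, so that antigen presentation genes, guanylate binding proteins, T-cell attracting chemokines and PD-L1 itself are transcribed. PD-L1 engages the receptor PD-1 on T cells and dampens their activity, and glioblastoma cells raise it under IFNγ.

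The 12 libraries held between 17101069 and 55657393 reads on genes. The shallowest was siPDL1-2 with IFNγ replicate 1 and the deepest siNC with IFNγ replicate 1. Of 13 markers listed for a glioblastoma line, 11 were at 1 CPM (the authors' counts scaled to library size) or more in every library, among them *VIM*, *CD44*, *NES* and *SOX2*, while *OLIG2* and *PROM1* stayed under 1 CPM in all. Of 12 immune-cell markers, 10 stayed under 1 CPM in every library and 1 was at 1 CPM or more in all. The 12 markers summed to 29.13 to 29.96 CPM in unstimulated siNC and 42.3 to 45.3 CPM in unstimulated siPDL1-2. With IFNγ they summed to 42.4 to 42.7 CPM in siNC and 47.8 to 51.4 CPM in siPDL1-2. The lymphocyte markers *CD3E*, *CD3D*, *CD2* and *MS4A1* had at most 3 reads in any library, and no immune-cell marker was called for the interaction by limma, while the glioblastoma marker *GFAP* was.

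The targeted transcript itself was reduced more, on the log2 scale, when it was induced. In unstimulated cells *CD274* stood at 4.60 and 4.91 CPM with siNC and at 3.57 and 3.45 CPM with siPDL1-2. With IFNγ it stood at 71.2 and 76.0 CPM with siNC and at 37.53 and 35.04 CPM with siPDL1-2. The groups did not overlap in either state. Of all 17982 genes tested, 12861 were likewise separated in unstimulated cells and 11606 with IFNγ. With siPDL1-2, 73.8% of the siNC mean of *CD274* was left in unstimulated cells and 49.3% under IFNγ. The effect of siPDL1-2 was -0.35 on the log2(CPM + 1) scale without IFNγ, below the fold threshold, and -1.001 with it, which places *CD274* among the gained effects (interaction -0.65, SE 0.11, limma, FDR = 0.000537). This call rested on the fold threshold. edgeR gave -0.55 (FDR = 0.00772) and DESeq2 -0.54 (FDR = 0.00945), so that neither passed 1.5-fold. With siPDL1-1 *CD274* stood at 2.67 and 2.73 CPM unstimulated and at 60.9 and 66.7 CPM with IFNγ.

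The CXCR3 ligands, the chemokines that draw activated T cells, were among the gained decreases. *CXCL10* and *CXCL11* had the largest negative interactions of that class after *AC139530.2* and *UTP14C*, which both overlap genes with more reads, and *CXCL9* a smaller one. *CXCL10* was at 285 and 309 CPM in the siNC libraries with IFNγ and at 69.7 and 72.5 CPM in the siPDL1-2 libraries with IFNγ, a 4.18-fold lower mean. *CXCL11* was at 61.7 and 67.2 CPM with siNC and at 17.2 and 15.6 CPM with siPDL1-2, and *CXCL9* at 39.8 and 37.6 CPM against 19.4 and 19.7 CPM. All 3 genes were separated between the groups under IFNγ, as were 11606 of all 17982 genes tested. In unstimulated cells *CXCL10* had 0 to 3 reads in each of the 4 libraries, *CXCL11* 0 or 1 and *CXCL9* none, so no siPDL1-2 effect could be measured there, and their interaction is in practice the effect under IFNγ. It was -2.05 for *CXCL10* (SE 0.12, limma, FDR = 2.99e-07), -1.89 for *CXCL11* (SE 0.17, FDR = 2.27e-05) and -0.95 for *CXCL9* (SE 0.14, FDR = 0.000219) on the log2(CPM + 1) scale.

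The count models, which set a ratio against these few unstimulated reads, did not call the interaction of the 3 chemokines: for *CXCL10* edgeR gave an FDR of 0.388 and DESeq2 of 0.262, and for *CXCL11* edgeR's estimate turned to 0.54 (FDR = 0.707). The effect under IFNγ alone was past the thresholds for *CXCL10* and *CXCL11* in all 17 alternatives tried.

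Sequences around the 2 IFNγ-response motifs in the promoters of the CXCR3 ligands and *CD274* are shown. *CXCL10* and *CXCL11* were chosen as the largest gained decreases after *AC139530.2* and *UTP14C*. *CXCL9* is the third CXCR3 ligand and *CD274* is the siRNA target. The sequences are from RefSeq (GRCh38.p14), each a window of 30 bases on the strand of the gene, from promoters that run from 250 bases before to 50 after the transcription start. Capitals mark the gamma-activated site TTCNNNGAA or the interferon-stimulated response element TTCNNTTTC, searched on both strands. On the opposite strand the second motif reads GAAANNGAA. A match is a match of letters and not a shown binding site.
CXCL10 response element, chr4:76023699-76023728, minus strand: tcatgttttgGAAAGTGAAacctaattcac
CXCL9 response element, chr4:76007661-76007690, minus strand: ccatttatgtGAAATGGAAataaaaacatg
CXCL11 activated site, first of 2, chr4:76036291-76036320, minus strand: ttaaatggatTTCTAGGAAaagctacctta
CXCL11 activated site, second of 2, chr4:76036033-76036062, minus strand: tttctactccTTCCAAGAAgagcagcaaag
CD274 response elements, 2 overlapping, chr9:5450328-5450357, plus strand: gacatgtTTCACTTTCTGTTTCatttctat
CD274 activated site, chr9:5450407-5450436, plus strand: ttccgccgatTTCACCGAAggtcaggaaag

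*IDO1* and *GBP4* were likewise lower with siPDL1-2 once induced. *IDO1*, which encodes the enzyme that starts tryptophan breakdown, was at 508 and 516 CPM with siNC and IFNγ and at 237 and 244 CPM with siPDL1-2 and IFNγ, with 2 to 4 reads per library in unstimulated cells (interaction -0.998, SE 0.10, limma, FDR = 3.2e-05). Its interaction was not called by edgeR, DESeq2 or with a pseudocount of 0.1. *GBP4*, a guanylate binding protein of the interferon response, was at 221 and 227 CPM against 144 and 131 CPM, with 1 to 8 reads when unstimulated (interaction -0.80, SE 0.12, FDR = 0.000204). Its interaction was not called by edgeR or DESeq2 either. For *IDO1* and *GBP4* too, the unstimulated reads were too few to measure a siPDL1-2 effect there. Their interaction is in practice the effect under IFNγ. In the plot of these genes by library the filled siPDL1-2 points lie below the filled siNC points in every panel.

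**Figure D1:**
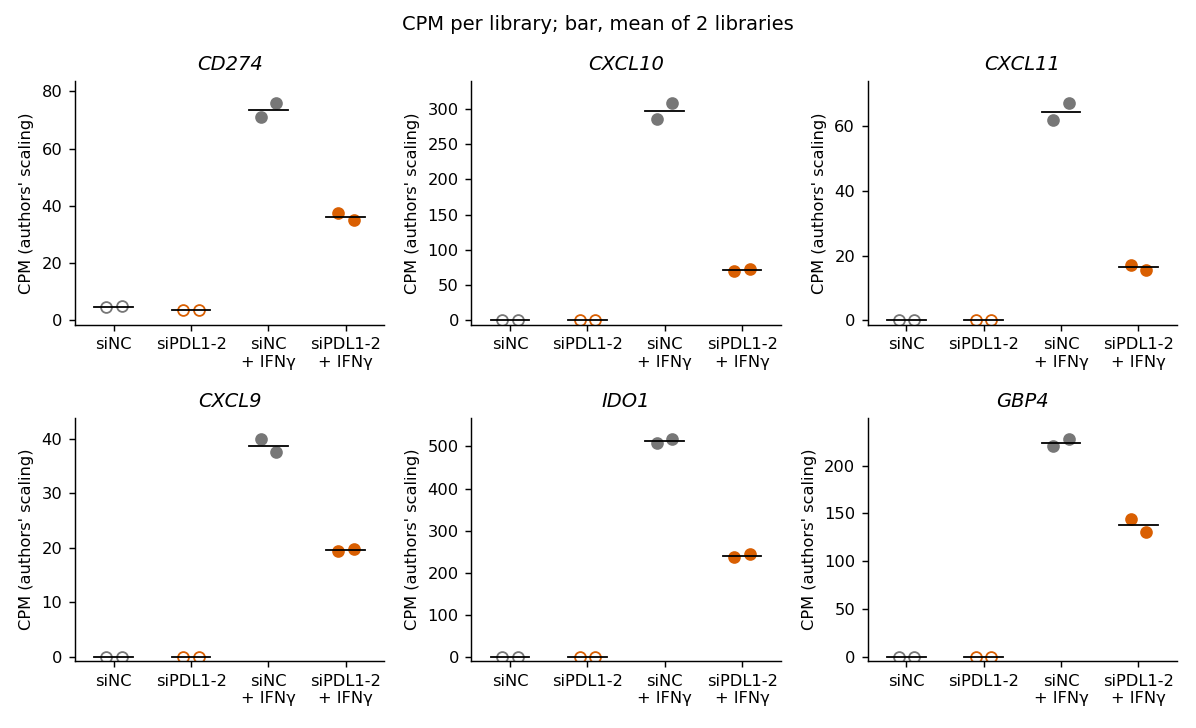
CPM of *CD274*, *CXCL10*, *CXCL11*, *CXCL9*, *IDO1* and *GBP4* in each of the 8 libraries (vertical axis, linear, from 0). Open points are unstimulated and filled points IFNγ-stimulated libraries, grey siNC and orange siPDL1-2, and the bar is the mean of 2 libraries. All genes but *CD274* are near 0 without IFNγ, and with IFNγ *CXCL10* is at 285 and 309 CPM with siNC against 69.7 and 72.5 CPM with siPDL1-2.

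The remainder of the interferon programme was described by gene lists. The IFNγ induction of antigen presentation genes did not pass the interaction test with limma. Of 21 tested MHC class I presentation genes 18 were raised by IFNγ with siNC and 18 with siPDL1-2, and 0 were called for the interaction, against 1370 of all 17982 genes tested (7.62%). Their interactions ran from -0.50 to 0.54 (6 had an unadjusted p under 0.05, against 39.6% of all genes, edgeR called 1, *TAPBPL*, and DESeq2 0). With the trends on base composition described below removed, 0 were called and 14 had an unadjusted p under 0.05, against 27.0% of all genes. Of 15 MHC class II genes all 15 were raised by IFNγ with either siRNA and 0 were called, with interactions from -0.47 to 0.28 (2 with an unadjusted p under 0.05, and 0 called by edgeR or DESeq2). Of 6 tested interferon regulatory factors 0 were called by limma (3 with an unadjusted p under 0.05), while edgeR and DESeq2 each called *IRF5*. The median interaction was 0.05, 0.03 and 0.10 for these 3 lists, against -0.01 over all 17982 genes tested.

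Of 6 tested guanylate binding proteins 3 were called, *GBP4*, *GBP5* and *GBP3*, all with a negative interaction, against 5.78% of all genes, and edgeR and DESeq2 each called *GBP3* and *GBP5* alone. *GBP5* stood at 2705 and 2778 CPM with siNC and IFNγ and at 1833 and 1768 CPM with siPDL1-2 and IFNγ, and at 61.4 to 67.4 CPM in the 4 unstimulated libraries (interaction -0.70, SE 0.05, limma, FDR = 4.66e-06). Of 43 type I interferon-response genes 2 were called, against 7.62% of all genes. *IFI6*, an interferon-induced mitochondrial protein, was the 1 with a positive interaction, against 1.84% of all genes. It stood at 17.7 and 19.8 CPM with siNC and 17.2 and 17.3 CPM with siPDL1-2 in unstimulated cells, and at 55.7 and 47.3 CPM against 80.9 and 95.3 CPM with IFNγ (interaction 0.87, SE 0.12, FDR = 0.00026). *IFIT2* had an interaction of -0.59, and was called in 10 of 17 alternatives. It was not called with DESeq2's size factors, with the trends on base composition described below removed, or without any 1 of 4 libraries (replicate 2 of unstimulated siNC, siNC with IFNγ and unstimulated siPDL1-2, and replicate 1 of siPDL1-2 with IFNγ).

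Over all genes the interaction was called for 1370 of 17982 genes, 7.62%, with 330 positive (1.84%) and 1040 negative (5.78%). In the 2 states taken singly, siPDL1-2 against siNC was called for 1110 genes (6.17%) without IFNγ and for 562 genes (3.13%) with it. The split between signs moved with the model: edgeR with its TMM factors called 532 positive and 970 negative, and DESeq2 487 and 861. Among left-out libraries the positive count moved more than the negative one. It was 624 without siNC with IFNγ replicate 1 and 162 without replicate 2, 171 without unstimulated siNC replicate 2, 184 and 192 without unstimulated siPDL1-2 replicates 1 and 2, and 132 without siPDL1-2 with IFNγ replicate 2. The negative count stayed between 747 and 1075 over the 8 left-out libraries. Removing the trends on base composition, described below, left 77 positive and 141 negative genes.

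By class, 505 called genes had lost the siPDL1-2 effect, 151 had gained it, 10 had reversed it and 12 kept its direction at another size. A further 692 called genes passed in neither state. The classes rest on the thresholds, so a lost effect need not be absent under IFNγ. The effects in the 2 states had opposite signs in 364 of the 505 lost and 104 of the 151 gained genes. They did so in all 692 genes that passed in neither state, against 7870 of all 17982 tested. A call for the interaction favours opposite signs. Under IFNγ the siRNA groups did not overlap in 354 of the 505 lost genes, against 11606 of all 17982. Losses were mostly of increases: 458 of the 505 genes were raised by siPDL1-2 in unstimulated cells and 47 were lowered. Of these 458 genes, IFNγ raised 279 and lowered 0 with siNC, and raised 7 and lowered 41 with siPDL1-2. Their median IFNγ effect was 0.65 with siNC and -0.25 with siPDL1-2. A negative interaction is a lower IFNγ effect with siPDL1-2 than with siNC, so the order of these medians was fixed by the selection. Of all 17982 genes tested, IFNγ raised 1200 and lowered 260 with siNC, and raised 651 and lowered 296 with siPDL1-2. Gains were of both signs, with 82 genes raised and 69 lowered by siPDL1-2 under IFNγ. The gained count was 310 without siNC with IFNγ replicate 1 and 74 without its replicate 2, 98 without unstimulated siPDL1-2 replicate 2 and 83 without siPDL1-2 with IFNγ replicate 2. The reversed count was 16 without unstimulated siNC replicate 1, 19 and 4 without siNC with IFNγ replicates 1 and 2, and 6 without siPDL1-2 with IFNγ replicate 2, while the lost count stayed between 376 and 519. Of the 151 gained genes 133 were measurable in both states, meaning a mean of at least 1 CPM in 1 of the 2 groups of each state, and of the 505 lost genes 496 were.

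**Figure D2:**
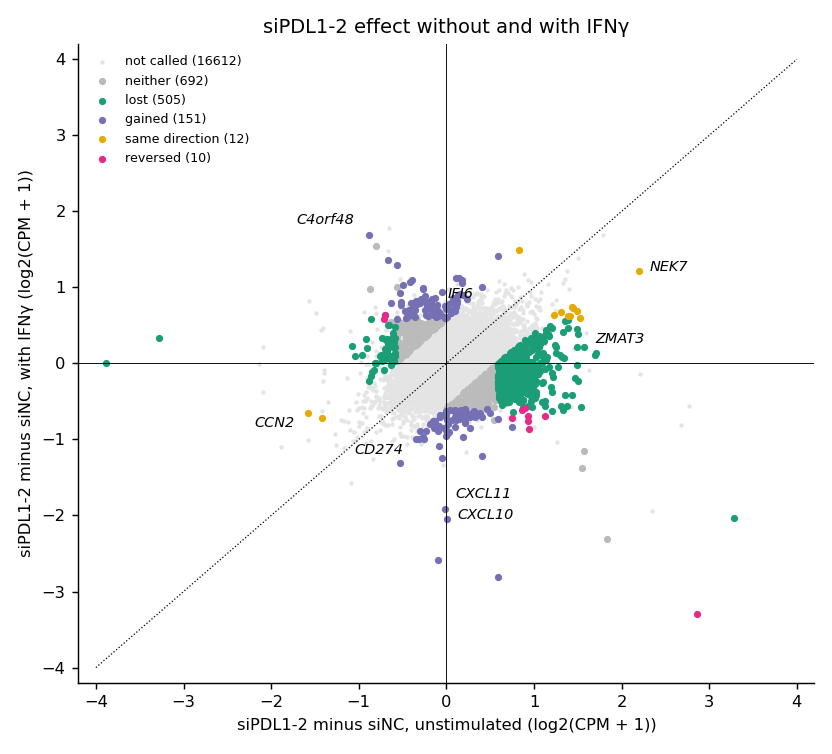
Effect of siPDL1-2 against siNC in unstimulated cells (horizontal axis) and with IFNγ (vertical axis), each as a difference of log2(CPM + 1), for the 17982 genes tested. Colours give the class of the 1370 called genes, and on the dotted line both effects are equal. The 505 lost genes lie mostly to the right of 0 on the horizontal axis and near 0 on the vertical axis, and *CXCL10* and *CXCL11* lie next to the vertical axis at -2.05 and -1.91.

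Base composition moved with these calls. The GC content of the Ensembl canonical transcript of each gene had a median of 65.0% in the 330 positive genes and 37.4% in the 1040 negative genes, against 48.7% in all genes tested, and transcript length a median of 2087, 4622 and 2888 bases. In the 1470 genes with 38% GC or less the median interaction was -0.55 and 41.2% were called negative, while 0 were called positive. In the 2632 genes above 60% GC the median was 0.30, 10.2% were called positive and 0.11% negative. The CPM-weighted mean GC content per library was 49.9% and 50.03% with siNC and 49.1% and 49.1% with siPDL1-2 in unstimulated cells, and 49.3% and 48.9% with siNC and 49.5% and 49.8% with siPDL1-2 under IFNγ. The order of the 2 siRNAs on this measure thus differed between the states, with no overlap in either.

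A fit with each library's trend on GC content and transcript length divided out of the CPM was added after seeing the data. It called 218 of 17922 genes, 1.22%, with 77 positive (0.43%) and 141 negative (0.787%). Of the 218, 169 had also been called before, which is 77.5% of the smaller and 12.3% of the larger set. The classes shrank to 80 lost, 36 gained, 2 reversed, 4 in the same direction and 96 in neither state. The part of base composition in the calls was not tested. For many genes below the interaction is given in both fits, and for some in 1 fit only.

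**Figure D3:**
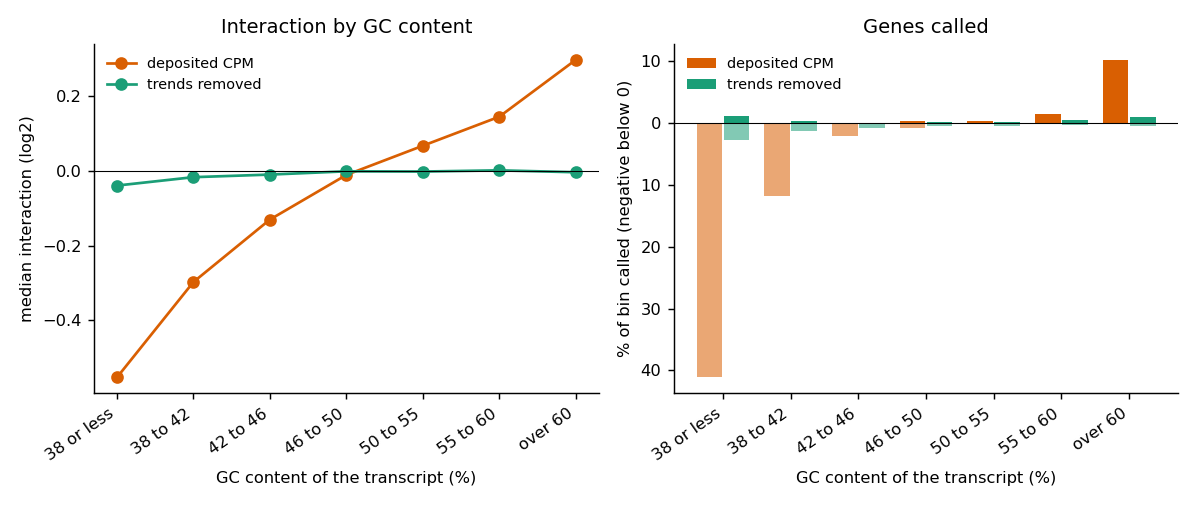
Left, median interaction (log2) of the genes in each of 7 classes of transcript GC content, with the deposited CPM (orange) and with the GC and length trends removed (green). Right, percentage of each class called with a positive (above 0) or negative (below 0, lighter) interaction. With the deposited CPM the median runs from -0.55 to 0.30 and 41.2% of the most AT-rich class is called negative, and with trends removed 2.72% is.

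**Figure D4:**
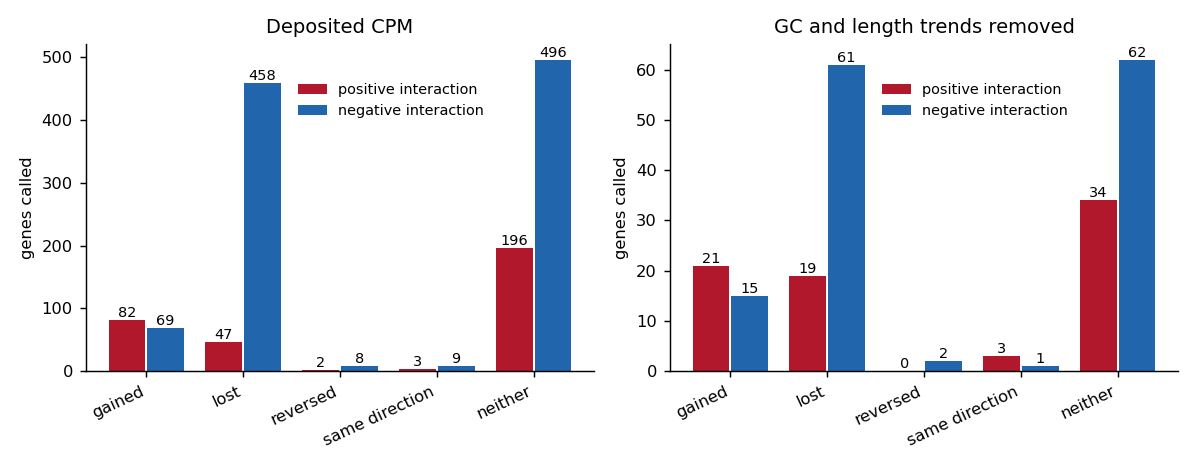
Number of genes called in each class, positive interactions in red and negative in blue, with the deposited CPM (left) and with the GC and length trends removed (right, different vertical scale). Lost effects with a negative interaction fall from 458 to 61 genes and gained effects with a positive one from 82 to 21.

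The decreases under IFNγ described above kept their call with the trends removed for *CXCL10* (interaction -1.85), *CXCL11* (-1.62), *IDO1* (-0.93), *CXCL9* (-0.83) and *GBP4* (-0.69), and so did the increase of *IFI6* (0.70). *CD274* did not, at -0.39 (limma, FDR = 0.00992), below 1.5-fold, and neither did *GBP5* at -0.33 or *GBP3* at -0.42. *CXCL10*, *CXCL11*, *IDO1*, *CXCL9* and *GBP4* had few or no unstimulated reads. Their interaction is therefore in practice the effect under IFNγ in both fits, and the kept call repeats that effect. Of the 90 genes named by rule, 27 were called with the trends removed.

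Among the lost effects, the genes that siPDL1-2 raised in unstimulated cells included the p53 targets *ZMAT3* and *TP53INP1*. Of 23 p53 targets tested, siPDL1-2 raised 3 and lowered 2 in unstimulated cells. *ZMAT3*, a p53-induced zinc finger RNA-binding protein, stood at 13.0 and 11.3 CPM with siNC and at 35.8 and 40.2 CPM with siPDL1-2 in unstimulated cells. With IFNγ it stood at 21.2 and 22.3 CPM against 27.0 and 24.0 CPM. The 3.13-fold difference without IFNγ thus became 1.17-fold. IFNγ raised *ZMAT3* with siNC, by 0.80 on the log2 scale, while its effect with siPDL1-2, -0.56, was below the fold threshold (interaction -1.35, SE 0.13, limma, FDR = 3.2e-05, and -0.88 with trends removed). *TP53INP1*, a p53-induced regulator of autophagy and apoptosis, went from 9.30 and 9.01 against 18.1 and 19.2 CPM to 16.0 and 17.6 against 17.4 and 15.3 CPM, so that the libraries overlapped under IFNγ (interaction -0.99, -0.61 with trends removed). For the interaction 6 of the 23 were called negative and 2 positive, against 5.78% and 1.84% of all genes, and with trends removed *ZMAT3* and *TP53INP1* were called, both negative, against 0.787%.

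The 5 genes of the lost class with the largest negative interaction under the naming rule were *AL161665.1*, *FP565260.6*, *ETFRF1*, *AC068547.1* and *CCDC39_1*. *ETFRF1*, a regulator of the electron transfer flavoprotein, stood at 2.94 and 2.86 CPM with siNC and 7.81 and 9.92 CPM with siPDL1-2 unstimulated, and at 8.82 and 9.19 against 6.04 and 5.06 CPM with IFNγ (interaction -1.95, SE 0.25, limma, FDR = 0.000169, and -1.27 with trends removed). It lies in an overlapping locus, and the authors' counting did not use strand, so its value is uncertain. *FP565260.6* stood at 3.18 and 3.42 against 11.5 and 11.5 CPM, and then at 9.96 and 12.0 against 5.57 and 8.76 CPM (interaction -2.12). The remaining 3 overlap genes with more reads and were called in 6 to 10 of their 16 or 17 alternatives, with trends removed in none.

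Further lost effects that were called in both fits, *BMI1*, *RCAN1* and *GASK1B*, were picked after their values were seen. *BMI1*, a Polycomb group repressor, stood at 30.1 and 29.5 CPM with siNC and 64.0 and 68.2 CPM with siPDL1-2, and at 67.9 and 73.1 against 51.5 and 47.7 CPM with IFNγ (interaction -1.62, and -1.29 with trends removed). Its value is uncertain, since the readthrough gene *COMMD3-BMI1*, which shares its exons, had means of 24.0 and 8.31 CPM without IFNγ and 8.57 and 11.7 CPM with it, for siNC and siPDL1-2 in turn, and the counting could split reads between them.

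*RCAN1*, an inhibitor of calcineurin, had about the same interaction in both fits. It stood at 56.1 and 58.5 CPM with siNC and 107 and 108 CPM with siPDL1-2 unstimulated, and at 45.2 and 46.8 against 48.3 and 47.1 CPM with IFNγ (interaction -0.85 in both fits, limma, FDR = 1.82e-05 and 1.46e-08). Its GC content, 47.9%, lies near the median of all genes. *GASK1B* likewise stood at 32.6 and 36.1 CPM in unstimulated siPDL1-2 and between 11.9 and 15.1 CPM in the other 6 libraries of the contrast (interaction -1.33, and -0.98 with trends removed).

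Decreases that were lost under IFNγ were fewer. *HSPA1A*, the inducible HSP70 chaperone, whose near-identical copy *HSPA1B* was also called (interaction 0.73), stood at 11.1 and 10.7 CPM with siNC and 5.46 and 5.16 CPM with siPDL1-2 unstimulated, and at 8.58 and 8.28 against 9.79 and 11.7 CPM with IFNγ (interaction 1.23, and 1.03 with trends removed, picked after its values were seen). By rule, *DRD4*, a dopamine receptor gene of 73.3% GC, had an interaction of 1.34 that was not called with trends removed, and *GAGE12J*, one of a family of near-identical cancer-testis genes, had 1.30 from 21 to 86 reads per unstimulated library. *DRD4* was called in 12 of 17 and *GAGE12J* in 9 of 16 alternatives, the others being mostly left-out libraries. *AL035078.4* stood at 15.1 and 14.2 CPM in unstimulated siNC and had 0 to 5 reads in each of the other 6 libraries. It spans *RCN1*, which had more reads, as *AC099329.1* spans *HIGD1A*, and *RNA5-8SN1* belongs to the repeated ribosomal genes.

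**Figure D5:**
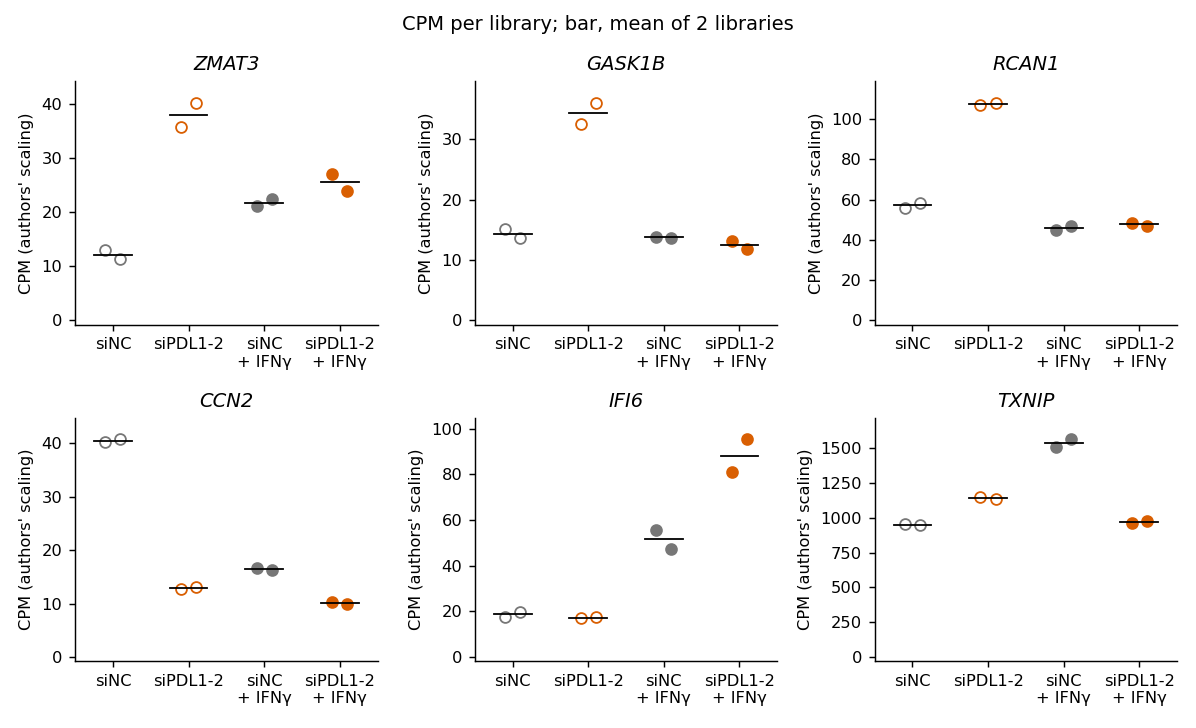
CPM of *ZMAT3*, *GASK1B*, *RCAN1*, *CCN2*, *IFI6* and *TXNIP* in each of the 8 libraries (vertical axis, linear, from 0), with open points for unstimulated and filled points for IFNγ-stimulated libraries, grey siNC and orange siPDL1-2, and a bar at the mean of 2 libraries. The siPDL1-2 increase of *RCAN1* is seen without IFNγ only, 107 and 108 CPM against 56.1 and 58.5 CPM, and the decrease of *TXNIP* with IFNγ only.

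Among gained increases, the 5 largest by rule were *C4orf48*, *TPGS1*, *TMEM160*, *AC129492.3* and *CFD*. Their GC content was 62.0% to 74.4%. All 5 were called with the trends removed, as were 26 of all 82 gained increases. *C4orf48*, which encodes a small secreted neuropeptide-like protein, stood at 3.38 and 5.49 CPM with siNC and 1.80 and 1.98 CPM with siPDL1-2 unstimulated, and at 3.11 and 1.20 against 8.27 and 9.19 CPM with IFNγ. Its interaction of 2.58 (SE 0.42, limma, FDR = 0.00219) was 1.73 with the trends removed, and it was not called without any 1 of 3 siPDL1-2 libraries (both unstimulated, and IFNγ replicate 2). *TPGS1* was not called without any 1 of the 4 siPDL1-2 libraries. *CFD*, complement factor D, stood at 4.41 and 5.79 against 3.57 and 3.69 CPM and then at 2.60 and 1.60 against 5.28 and 5.85 CPM (interaction 1.49, and 1.09 with trends removed). In both genes the siPDL1-2 libraries lay below the siNC libraries without IFNγ and above them with it.

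*PDGFB*, the growth factor chain PDGF-B, and *SOX18*, a transcription factor, were picked after their values were seen. *PDGFB* stood at 16.8 and 16.3 CPM with siNC and 16.0 and 14.3 CPM with siPDL1-2 unstimulated, and at 10.1 and 8.82 against 18.5 and 17.3 CPM with IFNγ (interaction 0.98, limma, FDR = 0.000129, and 0.76 with trends removed). The siNC libraries with IFNγ thus lay below the other 6 libraries. *SOX18* had an interaction of 1.47, and 0.76 with trends removed.

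Among gained decreases outside the interferon genes, *TXNIP*, the thioredoxin-interacting protein that restrains glucose uptake, had the highest CPM. It stood at 953 and 947 CPM with siNC and 1151 and 1134 CPM with siPDL1-2 unstimulated, and at 1510.2 and 1561 against 962 and 976 CPM with IFNγ (interaction -0.93, limma, FDR = 5.8e-08, and -0.78 with trends removed). *MIR100HG*, the host transcript of a microRNA cluster, stood at 29.9 and 29.4 against 35.2 and 36.7 CPM and then at 57.0 and 59.6 against 32.5 and 31.4 CPM (interaction -1.12, and -0.79 with trends removed). In both, the siNC libraries with IFNγ were the highest and the siPDL1-2 libraries with IFNγ lay within the range of the unstimulated libraries. Both were picked after their values were seen. *UTP14C*, *AC139530.2* and *SLX1B*, the other 3 by rule, lie in overlapping or duplicated loci, were called in 5 to 10 of their 16 or 17 alternatives and were not called with the trends removed.

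Of the 10 reversed genes, 8 were raised by siPDL1-2 without IFNγ and lowered with it, and 2 were the opposite. The 2 were *CTU1*, an enzyme that adds sulfur to transfer RNA, and *LRFN1*, a synaptic adhesion protein. *CTU1* stood at 8.03 and 10.3 CPM with siNC and 5.15 and 5.28 CPM with siPDL1-2 unstimulated, and at 7.43 and 5.50 against 10.4 and 10.6 CPM with IFNγ (interaction 1.33, SE 0.18, limma, FDR = 0.000128). *LRFN1* had an interaction of 1.30. Both kept their interaction call with the trends removed (0.73 and 0.79) but passed in neither state there.

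The largest negative interactions among reversed genes were in *AC011511.4*, *AC146944.2* and *AP001033.2*. *AC011511.4* stood at 0 reads in both unstimulated siNC libraries and both siPDL1-2 libraries with IFNγ, and at 7.33 and 5.31 CPM in unstimulated siPDL1-2 and 5.34 and 14.3 CPM in siNC with IFNγ. It overlaps *RAVER1* and *FDX2*, whose reads the counting could share with it, and it was called in 12 of 17 alternatives, not without any 1 of 5 libraries. *AP001033.2* lies within *ANKRD12* and kept the reversed class with the trends removed, at 0.29 and 0.35 against 1.39 and 1.71 CPM without IFNγ and 2.66 and 3.20 against 1.23 and 1.09 CPM with it (interaction -1.80, and -1.30 with trends removed).

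Of the 12 genes whose siPDL1-2 effect kept its direction, 9 had a negative and 3 a positive interaction. *CCN2*, a matricellular growth factor and target of YAP and TEAD, was lowered in both states but less so under IFNγ. It stood at 40.2 and 40.7 CPM with siNC and 12.8 and 13.0 CPM with siPDL1-2 unstimulated, and at 16.7 and 16.2 against 10.4 and 9.88 CPM with IFNγ. The decrease thus went from 3.13-fold to 1.63-fold (interaction 0.92, SE 0.10, limma, FDR = 4.26e-05, and 0.84 with trends removed), with IFNγ itself lowering *CCN2* in siNC. *HMOX1*, heme oxygenase, had a like pattern, 2.77-fold lower without IFNγ and 1.68-fold lower with it (interaction 0.70), which fell to 0.51 and lost its call with the trends removed.

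Increases that shrank under IFNγ included *NEK7*, a kinase needed for NLRP3 inflammasome assembly, which stood at 6.12 and 6.50 CPM with siNC and 31.1 and 34.0 CPM with siPDL1-2 unstimulated, and at 11.1 and 13.3 against 30.4 and 29.0 CPM with IFNγ. Its interaction of -0.98 was -0.31 with the trends removed and then not called. *SGPP1*, a sphingosine-1-phosphate phosphatase, kept its call, at -0.92 and -0.65, with 6.22 and 6.07 against 18.2 and 21.0 CPM and then 10.3 and 10.4 against 16.7 and 15.7 CPM. *ALDH3A1*, an aldehyde dehydrogenase, was the 1 of the 12 with an increase that grew, from 1.88-fold to 3.31-fold (interaction 0.66, called in 9 of 17 alternatives). *CXCL8*, a neutrophil chemokine, was not called for the interaction with the deposited CPM. With the trends removed it and *RGS4*, a regulator of G-protein signalling, joined the same-direction class, with interactions of 1.501 and 0.85. Both were decreases that shrank under IFNγ. All 3 genes of that class with a positive interaction in that fit were lowered by siPDL1-2 in both states. The interaction of siPDL1-1 was also called positive for these 3 genes.

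Of the genes called in neither state, *HES4*, a Notch-responsive repressor, had an interaction of 1.85 (0.80 with trends removed, and not called without unstimulated siPDL1-2 replicate 1 or siPDL1-2 with IFNγ replicate 2) and *LIF*, a cytokine of the interleukin-6 family, of 0.75 (0.62). *LIF* stood at 22.5 and 25.5 CPM with siNC and 16.4 and 15.05 CPM with siPDL1-2 unstimulated, and at 11.2 and 11.6 against 13.3 and 12.7 CPM with IFNγ. *DNAJB9*, an endoplasmic reticulum chaperone partner, was lost in the deposited CPM (interaction -1.12) and passed in neither state with the trends removed (-0.62). The other genes that the rule named in this class, *CCDC85B*, *IER5L*, *AL035461.3*, *ANKRD10-IT1* and *AC034193.1*, were called in 5 to 8 of their 16 or 17 alternatives and not with the trends removed.

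In the other lists most called genes were not called once the trends were removed. *JAK2*, the kinase of the IFNγ receptor that lies on 9p24 with *CD274*, stood at 14.0 and 15.5 CPM with siNC and 26.6 and 25.9 CPM with siPDL1-2 unstimulated, and at 61.3 and 65.1 against 58.2 and 56.4 CPM with IFNγ (interaction -0.93, SE 0.10, limma, FDR = 4.29e-05). With the trends removed it was -0.33. *CD47*, the ligand that restrains phagocytosis, had -0.88 and then -0.31, and *NECTIN3* -0.63 and then 0.09, a change of sign. The counts that follow stand against 7.62% of all genes called (5.78% negative), and 1.22% with the trends removed. Of 54 G2/M-phase genes 7 were called, all negative, among them *G2E3* and *KIF20B*, whose interactions of -0.91 and -0.67 became 0.065 and 0.17, and 0 were called with the trends removed. In 4 other lists the called genes were of both signs. Their number went from 5 (3 positive, 2 negative) to 0 for ATF4 targets and from 7 (2 and 5) to 0 for NF-kB subunits and targets. It went from 6 (3 and 3) to 0 for cholesterol and fatty acid synthesis and from 4 (3 and 1) to 0 for oxidative phosphorylation. With the trends removed, limma gave an unadjusted p under 0.05 for 27.0% of all genes, and for 22 of 54 G2/M-phase, 24 of 38 ATF4, 10 of 29 NF-kB, 18 of 31 cholesterol and 29 of 57 oxidative phosphorylation genes, with interactions below 1.5-fold or an FDR above 0.01. Without removal of the trends, edgeR called 6 and DESeq2 5 G2/M-phase genes. Each of them called 5 ATF4, 8 NF-kB, 6 cholesterol and 4 oxidative phosphorylation genes.

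The lists with a call in both fits were few, and their counts stand against the same shares, 7.62% of all genes and 1.22% with the trends removed. Of 24 YAP-TEAD targets 2 were called positive and 2 negative, and with the trends removed *CCN2* and *ANKRD1* were called. Of 23 cytokines and growth factors 5 were called (*FGF2*, *GDF15*, *IL7*, *LIF* and *INHBA*), and with the trends removed *LIF*. Of 18 unfolded protein response genes *DNAJB9* and *SDF2L1* were called, and with the trends removed *DNAJB9*. Of 43 type I interferon-response genes *IFI6*, *IFI44L* and *DDX60* were called with the trends removed, all positive. Of 13 genes of the RNA interference machinery, which loads and uses siRNAs, limma called 0 (5 with an unadjusted p under 0.05, and 0 called by edgeR or DESeq2).

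With siPDL1-1, which shares the siNC libraries, the same interaction was called for 174 genes (0.968%), 160 positive and 14 negative. For *CXCL10* it was -0.34 and not called, against -2.05 with siPDL1-2. For *CXCL11* it was -1.16 and for *IDO1* -0.92, both called, against -1.89 and -0.998. The difference between the siRNAs can be tested without siNC, as the IFNγ effect with siPDL1-2 minus that with siPDL1-1, and it was called for 876 genes (4.87%), 99 positive and 777 negative. It was 1399 without siPDL1-1 with IFNγ replicate 1 and 551 to 579 without its replicate 2, unstimulated siPDL1-1 replicate 1, or replicate 2 of either siPDL1-2 group. With the trends removed it was called for 370. Of 43 type I interferon-response genes 36 were called with a lower IFNγ effect in siPDL1-2, and 34 with the trends removed. In these 43 genes the median IFNγ effect was 2.42 with siNC and 2.39 with siPDL1-2, the median interaction was 0.01 with siPDL1-2 and 1.58 with siPDL1-1, and siPDL1-1's own interaction was called positive for 32 of them. *IFI6* went from 33.6 and 32.2 CPM unstimulated to 501 and 461 CPM with IFNγ in siPDL1-1, a difference of -1.55, and *IFIT2* from 9.11 and 10.1 to 645 and 659 CPM, a difference of -2.78.

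The 2 IFNγ-response motifs were counted in the promoters of called genes. Of the genes tested 12208 matched a RefSeq promoter by symbol, with 17704 promoters, of which 6.34% held TTCNNNGAA and 6.72% held TTCNNTTTC, against 7.66% and 8.11% of all 35116 promoters of the same length. In promoters of gained genes the shares were 3.597% and 6.47% (5 and 9 of 139 promoters), and in those of lost genes 7.14% and 7.49% (41 and 43 of 574). The 77 promoters of gained decreases held them at 5.19% and 7.79% (4 and 6 promoters), and the 62 of gained increases at 1.61% and 4.84% (1 and 3 promoters). These shares rest on few promoters and are given as a description.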

How the data were processed

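PolyA RNA-seq libraries of U251 cells were analysed, 2 per group in 6 groups. Per the study's methods, the authors trimmed the reads and used CLC Genomics Workbench to map them to GRCh38 and count them on Ensembl genes, without using strand. The deposited signal values are the authors' CPM after a further library-size factor, and all values (100%) were whole multiples of 1 read within 0.01 read, so read counts per gene were recovered from the deposited table. Library totals were 17101069 to 55657393 reads, and all 12 columns were used.

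Genes were kept by edgeR's filterByExpr (minimum count 10, total 15). limma (3.58.1, trend and robust) was fitted to log2(CPM + 1) over all 12 libraries as 6 groups, and FDRs were Benjamini-Hochberg adjusted. Fold changes on this scale understate those of low genes. On the recovered reads, edgeR's quasi-likelihood test (4.0.16) called 532 positive and 970 negative interaction genes and DESeq2 (1.42.0) 487 and 861. Other alternatives were DESeq2's size factors, no filter, a pseudocount of 0.1, the 8 libraries of the contrast, a replicate block and leaving out each library. Trends on GC content and transcript length (GENCODE canonical transcripts, splines with 5 degrees of freedom) were removed per library as an alternative added after seeing the data, and 17922 genes had both values. Fits were tested on simulated data.

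Named genes were *CD274*, *CXCL10*, *CXCL11* and *IDO1*, then, at a mean of at least 1 CPM in 1 of the 4 groups and with no overlap between siRNAs in a called state, the 5 largest of each sign among gained and lost and the 3 largest among the other classes, and up to 4 called genes of each of 25 gene lists. Genes outside this rule are said to be picked after their values were seen. The comparison and the lists were chosen with earlier results of these data known. Some genes are not reported here.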

Additional observations from a re-analysis of the deposited data

Results flagged for a closer look

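The effect of IFNγ differed between siPDL1-2 and siPDL1-1 for 41 of the 90 genes named by rule, by a limma test of the difference itself. Over all genes tested the share was 4.87%. Most of the 90 were named for their siPDL1-2 interaction, which holds the same IFNγ effect with siPDL1-2. The selection thus favoured these calls, and the count is no independent check. Each value below is the IFNγ effect with siPDL1-2 minus that with siPDL1-1 on the log2(CPM + 1) scale, so that siNC does not enter. FDRs are Benjamini-Hochberg adjusted over all genes.

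Among interferon and immune genes it was -2.78 for *IFIT2*, -1.70 for *CXCL10*, -1.55 for *IFI6*, -1.08 for *CD274*, -1.03 for *JAK2*, -0.76 for *CD47*, -0.73 for *CXCL11*, -0.73 for *GBP4* and -0.65 for *GBP3*. Among NF-kB genes it was -0.88 for *REL*, -0.80 for *BIRC3* and -0.74 for *BIRC2*. Among p53 targets it was -1.05 for *PMAIP1*, -0.82 for *TP53INP1* and -0.72 for *ZMAT3*.

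Among metabolic and stress genes it was -1.40 for *STARD4*, -0.81 for *SLC7A11*, -0.73 for *MSMO1*, -0.65 for *SLC38A2*, -0.65 for *DNAJB9*, -0.62 for *SC5D*, -0.60 for *BNIP3L*, -0.67 for *AK3*, 0.63 for *ATP5F1D*, 0.75 for *ADM* and 0.83 for *SDF2L1*. It was -0.97 for *FGF2*, -0.87 for *SGPP1*, -0.83 for *RBMS3*, -0.80 for *NEK7* and -0.79 for *G2E3*, and 0.78 for *CTU1*, 0.94 for *LRFN1*, 1.1 for *CFD* and 1.40 for *TMEM160*. Among genes in overlapping or multi-copy loci it was -1.78 for *FP565260.6*, -1.71 for *ETFRF1*, -1.11 for *AP001033.2*, 1.37 for *GAGE12J*, 3.56 for *AC099329.1* and 3.82 for *AL035078.4*. Over all genes the count of such differences went from 876 to 370 with the trends on GC content and transcript length removed. Of the 41 named genes 18 kept their call and 23 did not. The 18 were *CD274*, *CXCL10*, *CXCL11*, *GBP4*, *IFI6*, *IFIT2*, *PMAIP1*, *STARD4*, *ADM*, *SGPP1*, *LRFN1*, *CFD*, *TMEM160*, *FP565260.6*, *ETFRF1*, *AP001033.2*, *GAGE12J* and *AL035078.4*.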

How the results depend on the processing

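Alternatives on GC content were chosen after seeing the data. With GC and length trends removed the interaction called 77 positive and 141 negative genes (36 gained, 80 lost, 2 reversed), with the GC trend alone removed 84 and 127 (35, 73 and 2), and the difference between siRNAs 370 and 375. These removals turned the sign of *NECTIN3* (0.0851 and 0.0757), *RAD51AP1* (0.0371 and 0.0656), *G2E3* (0.065 and 0.0537) and *KIF20B* (0.17 and 0.15), and edgeR turned *CXCL11* (0.54). edgeR called 532 positive genes and 22 reversed, DESeq2 19 reversed, and the fit on the 8 libraries of the contrast 18 reversed. Leaving out a library gave 132 to 624 positive, 747 to 1075 negative, 74 to 310 gained, 376 to 519 lost and 4 to 19 reversed genes, and 551 to 1399 for the difference between siRNAs. The cause of these shifts was not tested. With the replicate number as a block, 294 positive and 1032 negative genes were called (141 gained, 496 lost, 13 reversed). Same-numbered libraries correlated at -0.13 to 0.19 in their deviations from the group means, so the numbers were not taken as pairs. With 2 libraries per group and at least 17101069 reads each, smaller effects may have been missed.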
